A study of Homo sapiens with 24 samples.

Results

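The miRNA response to RELB knockdown in OV90 spheroids was measured in 8 of the 24 small RNA libraries of the series, 4 with an shRNA against RELB (shRELB) and 4 with a negative control shRNA (shNeg). They were chosen by their labels alone, as the spheroid libraries of these groups. OV90 is an established line of epithelial ovarian cancer, and the study grew it as spheroids to enrich for tumor-initiating cells (TICs). The other 16 libraries hold adherent shNeg and shRELB cells and cells with an shRNA against RELA (shRELA) in both cultures. They serve for comparison, and they also enter the filter, the scaling and the estimate of spread behind the tests. Every group, the controls included, carried a doxycycline-inducible shRNA and was given 1 µg/ml doxycycline for 72 h. Spheroids grew in ultra-low attachment vessels in DMEM-F12 with serum replacement, EGF and FGF, whereas adherent cells grew in RPMI with fetal calf serum, so culture form and medium differ together. The labels give the shNeg samples the genotype Wildtype, and their titles name them Neg. Nothing in the labels says whether the 4 replicates of a group were separate cultures, so p-values measure the spread between these libraries only. miR-seq does not read RELB mRNA, so the depth of the knockdown could not be checked in these libraries.

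RELB is the transcription factor subunit of the non-canonical NF-κB pathway, which is switched on when NIK and IKKα process p100 to p52, the partner of RELB on DNA. RELA carries the canonical, inflammatory arm of the same family. A mature miRNA is cut from 1 arm of an RNA hairpin (the 5p or the 3p arm) and pairs with target mRNAs mainly through its seed, so miRNAs with the same seed share most predicted targets.

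The sequences below are the mature miRNAs on which the comparison turned, taken from RefSeq (GRCh38.p14), 5′ to 3′, with the seed (bases 2 to 8) in capitals. The miR-302 cluster is shown first because all 6 of its tested arms were higher with shRELB. Its 4 arms from the 3′ side share the seed AAGUGCU, and the arm miR-302a-5p has another.
miR-302a-3p: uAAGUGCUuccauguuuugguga
miR-302b-3p: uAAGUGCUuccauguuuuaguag
miR-302c-3p: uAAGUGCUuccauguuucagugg
miR-302d-3p: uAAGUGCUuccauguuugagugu
miR-302a-5p: aCUUAAACguggauguacuugcu

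The let-7 family is shown because its members have 1 seed and did not move together. Positions count from 1 at the 5′ end, with the let-7b-5p base first. let-7a-5p differs from let-7b-5p by G17A and G19A, let-7f-5p by G12A, G17A and G19A, let-7g-5p by G12U, G17A, U18C and G19A, let-7e-5p by U9G, G17A and G19A, and miR-98-5p by G11A, G17A and G19U. None of these differences lies in the seed.
let-7b-5p: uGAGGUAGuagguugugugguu
let-7a-5p: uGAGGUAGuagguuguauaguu
let-7e-5p: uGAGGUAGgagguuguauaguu
let-7f-5p: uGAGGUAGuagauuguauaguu
let-7g-5p: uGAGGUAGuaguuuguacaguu
miR-98-5p: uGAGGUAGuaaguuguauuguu

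The next group holds other miRNAs that were higher with shRELB, namely the miR-200 family, miR-155-5p and the miR-146 pair, and miR-135b-5p, miR-184 and miR-34a-5p. miR-200c-3p and miR-200b-3p share a seed, as do miR-146a-5p and miR-146b-5p.
miR-200c-3p: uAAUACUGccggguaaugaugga
miR-200b-3p: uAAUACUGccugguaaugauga
miR-141-3p: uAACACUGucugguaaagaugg
miR-155-5p: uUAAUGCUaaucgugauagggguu
miR-146a-5p: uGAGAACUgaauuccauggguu
miR-146b-5p: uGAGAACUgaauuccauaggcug
miR-135b-5p: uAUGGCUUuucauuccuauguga
miR-184: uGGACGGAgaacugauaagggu
miR-34a-5p: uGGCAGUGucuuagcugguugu

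Those below were lower with shRELB. The first 4 come from introns or exons of GABA receptor genes on chromosome X, and the last 3 are short and rich in G and C.
miR-224-5p: uCAAGUCAcuagugguuccguuuag
miR-452-5p: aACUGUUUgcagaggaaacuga
miR-767-5p: uGCACCAUgguugucugagcaug
miR-105-5p: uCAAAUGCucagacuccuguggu
miR-205-5p: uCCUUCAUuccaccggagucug
miR-671-5p: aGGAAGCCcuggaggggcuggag
miR-4488: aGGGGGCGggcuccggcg
miR-4516: gGGAGAAGggucggggc
miR-1275: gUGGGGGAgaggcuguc

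The total count per library was 959141 to 1580252 with shNeg and 1861232 to 3580931 with shRELB. shNeg replicate 1 had a total within the range of its group, 1220592, but a count for only 432 miRNAs, against 813 to 885 in the other shNeg libraries and 799 to 1005 in the shRELB libraries. Values are CPM, counts set to a common library total, after scaling with TMM, which takes that total from miRNAs that differ little between libraries. Fold changes are log2, shRELB over shNeg, with their standard error (SE). A count of 0 allows up to 3 counts, worth 1.54 to 2.29 CPM in the shNeg and 0.860 to 1.58 CPM in the shRELB libraries, for counting error only. For a miRNA with 3 counts or fewer in all 4 libraries of a group, a limit is printed in place of a fold change, with that group put at 3 counts in each library.

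RELB knockdown changed 121 of the 905 miRNAs tested (13.4%) in edgeR's quasi-likelihood test, where a call needs an FDR under 0.01 and a change of over 2-fold either way. Of these, 66 were up-regulated (7.29%) and 55 were down-regulated (6.08%). The test was fitted over all 24 libraries, and 50 were called when the 8 libraries of the 2 groups were fitted alone. The groups did not overlap for 157 of the miRNAs tested (17.3%), and for 91 of the 121 called. Of the calls, 94 had a mean of 10 CPM or more, 55 up-regulated and 39 down-regulated. Among the 68 miRNAs that averaged 1000 CPM or more, 8 were up-regulated and 6 down-regulated. In these bulk libraries, fewer cells of a type and less RNA per cell cannot be told apart.

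The split of the calls by direction depended on the scaling. TMM placed 54.5% of the calls among the up-regulated and the median log2 fold change of all miRNAs at 0.16. Median-ratio size factors gave 43.2% and a median of 0.03, and library totals alone gave 34.1% and −0.09. With a mean of 10 CPM or more required the share was 43%, and in DESeq2's Wald test 42%. With 1 setting chosen after seeing the data, the GC content of the mature miRNA as an offset, it was 33.7%. The split also turned on single shRELB libraries. Without shRELB replicate 3, 41 were up-regulated and 53 down-regulated, and without shRELB replicate 4, 47 and 63. The log2 fold changes below are those with TMM.

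**Figure D1:**
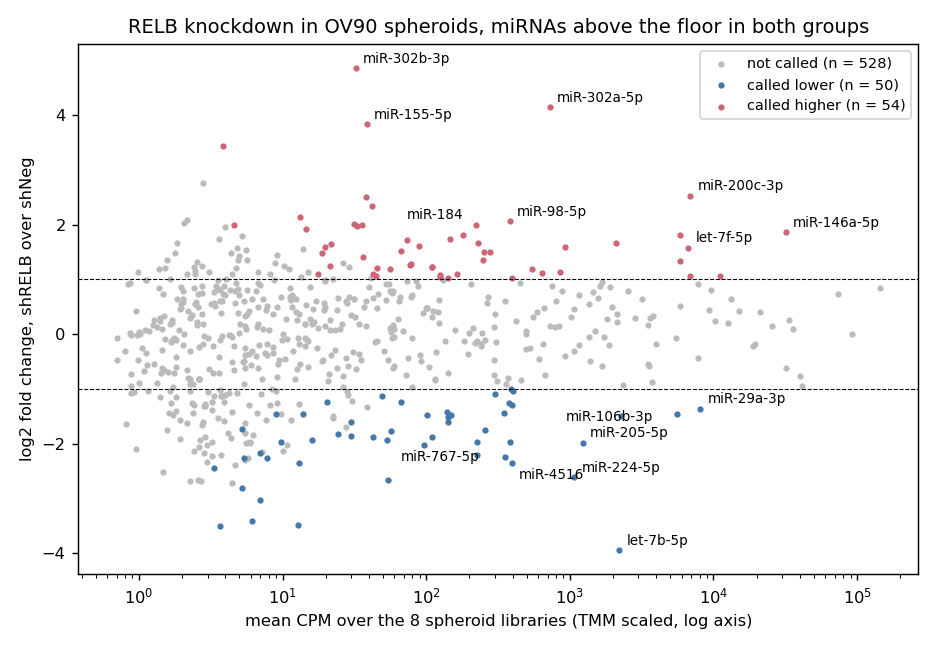
Log2 fold change (shRELB over shNeg, spheroids) against mean abundance on a log10 axis of CPM, for miRNAs above 3 counts in some library of both groups. Coloured points are the 54 up-regulated and 50 down-regulated miRNAs, grey points the 528 that were not called, and dashed lines mark a fold change of 2 in either direction.

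The plot of change against abundance shows calls at every abundance above the lowest. The scatter of grey points widened toward low CPM, where the counts behind a value are few. let-7b-5p lies apart at the bottom and the miR-302 arms at the top.

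The miR-302 cluster is known for its expression in embryonic stem cells, where it sustains pluripotency, and its seed is shared with other miRNAs of embryonic stem cells. Its hairpins lie within chr4:112647874-112648557 on the minus strand (GRCh38), in an exon of the lncRNA MIR302CHG and opposite an intron of LARP7. miR-302a-5p stood at 91.7, 95.5, 68.7 and 54.8 CPM in the shNeg libraries and at 1395, 1350.3, 1496 and 1249 CPM in the shRELB libraries. The 2 groups were far apart and each was tight. The log2 fold change was 4.15 (SE 0.24, FDR 1.62e-15), a fold of 17.7.

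The 3p arms were near or under the floor with shNeg. miR-302b-3p went from 0.733, 3.82, 3.59 and 0 to 63.3, 58.9, 88.4 and 40.2 CPM, a log2 fold change of 4.86 (SE 0.49, FDR 1.15e-09). miR-302d-3p had 0, 0, 0.513 and 0.702 CPM with shNeg and 19.5, 22.9, 50.7 and 24.95 CPM with shRELB. Every shRELB library exceeded every shNeg library for both. Since each shNeg library had at most 3 counts, miR-302d-3p is given as at least 14.5-fold higher, and miR-302a-3p, at 17.4, 29.3, 45.1 and 12.05 CPM with shRELB, as at least 12.8-fold higher. miR-302c-5p, named after its values were seen, and miR-302c-3p were at least 2.63-fold and 1.74-fold higher, from a few CPM with shRELB. All 6 were also called without shNeg replicate 1, where the limit for miR-302d-3p was 14.9-fold. Both miR-302c arms were lost when only the spheroid shNeg and shRELB groups were fitted, and miR-302c-5p also when shNeg replicate 1 was left out of that fit.

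Of the 16 miRNAs listed as pluripotency-associated, from the miR-302 cluster and the cluster of miR-371, miR-372 and miR-373 on chromosome 19, 8 could be tested, 6 were up-regulated and none was down-regulated. Their median log2 fold change was 4.50, or 2.53 with floor values at their limits, against 0.16 and 0 over all 905. Of all 905, 7.29% were up-regulated and 6.08% down-regulated. The tested members from chromosome 19 were not called. miR-373-3p, which has the same seed as the miR-302 3p arms, stood at 0, 0, 1.03 and 2.11 CPM with shNeg and 2.64, 1.66, 0.930 and 1.15 CPM with shRELB, and was not called.

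let-7 miRNAs mark differentiated cells and repress LIN28, HMGA2 and RAS family genes. let-7b-5p was the largest decrease among miRNAs above the floor in both groups. It stood at 6197, 3573, 3653 and 3149.7 CPM with shNeg and at 305, 287, 259 and 225 CPM with shRELB. shNeg replicate 1 was the highest library, and all 4 shNeg libraries lay more than 10 times above all shRELB libraries. The log2 fold change was −3.95 (SE 0.20, FDR 3.47e-17), or −3.69 without shNeg replicate 1, which is 15.4-fold lower with all libraries. Its hairpin MIRLET7B (chr22:46113686-46113768, plus strand) lies in an exon of MIRLET7BHG.

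Of the members with the same seed, 3 rose. miR-98-5p went from 77.0, 163, 193 and 155 to 483, 561, 933 and 493 CPM, a log2 fold change of 2.07 (SE 0.25, FDR 6.46e-08). let-7f-5p went from 4580.5, 3043, 3135 and 2663 to 6548, 7584, 13625 and 12279 CPM, a log2 fold change of 1.58 (SE 0.20, FDR 2.56e-07). let-7g-5p went from 1457, 3914, 4176 and 3683 to 7664, 7736, 10861 and 7007 CPM, a log2 fold change of 1.33 (SE 0.22, FDR 1.44e-05). None of the 3 overlapped between groups. miR-98 and 1 of the 2 let-7f hairpins, MIRLET7F2, lie close together in an intron of HUWE1 on chromosome X (chrX:53556223-53557274), but reads of let-7f-5p can also come from MIRLET7F1 on chromosome 9.

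The most abundant members, let-7e-5p and let-7a-5p, did not pass the fold change threshold. let-7e-5p went from 121063, 95809.8, 106292 and 92592 to 200291, 189779, 166848 and 187620.0 CPM, a log2 fold change of 0.84 (SE 0.13, FDR 7.38e-06). let-7a-5p, which has several hairpins, had a log2 fold change of 0.74 (SE 0.13, FDR 4.79e-05). In both, the groups did not overlap. let-7c-5p was at 0.87 and was called without shNeg replicate 1, at 1.09, while let-7i-5p (0.40) and let-7d-5p (0.29) overlapped between the groups. Of the 9 members tested, 3 rose and 1 fell, against 7.29% and 6.08% over all miRNAs tested, and the median was 0.84. The summed TMM-scaled level of the 9 was 168050 to 219560 CPM with shNeg and 313561 to 348447 CPM with shRELB. The family sum was thus higher with shRELB although let-7b-5p was lower.

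With GC content as an offset, let-7f-5p and let-7g-5p were no longer called, at 0.20 and 0.54, and the members not called turned to negative values, at −0.27 for let-7a-5p and −0.04 for let-7e-5p. miR-98-5p and let-7b-5p were called in every setting tried. Without shRELB replicate 3, let-7g-5p missed the fold change threshold, at 0.99.

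**Figure D2:**
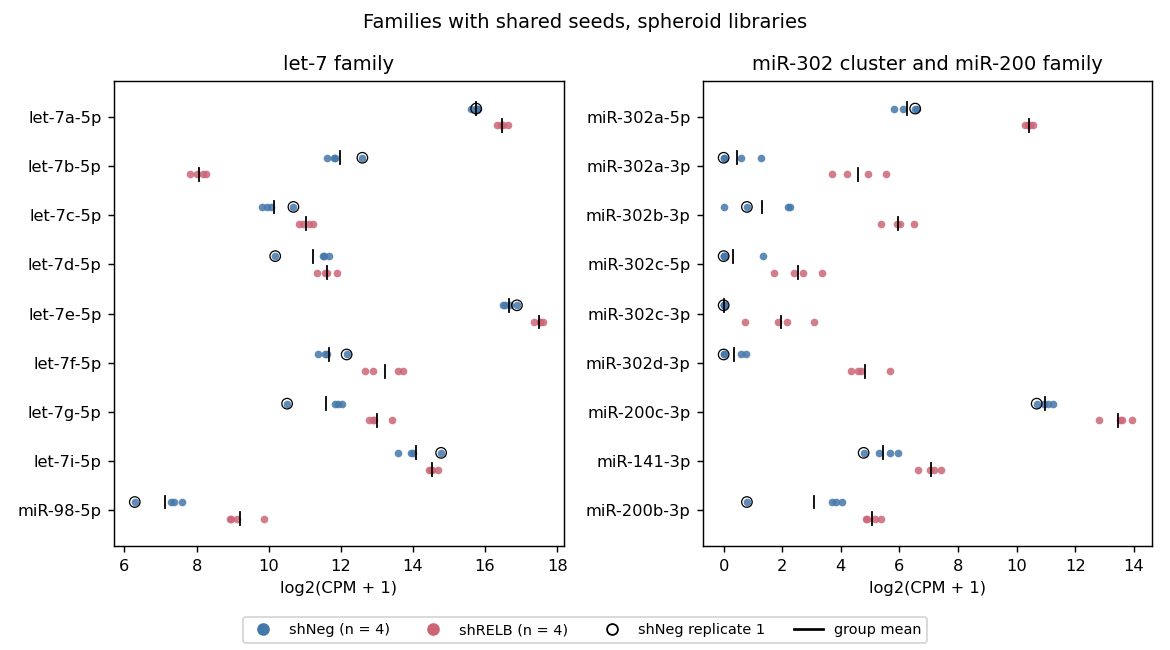
TMM-scaled level of each library, as log2(CPM + 1), for the let-7 family (left) and for the miR-302 cluster and miR-200 family (right). Blue points are shNeg, red points shRELB (n = 4 each), bars are group means and circles mark shNeg replicate 1. In the let-7 panel only let-7b-5p has its shRELB points to the left of its shNeg points.

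The plot of the families shows the tight groups behind these values. shNeg replicate 1 is at 1 end of its group for most let-7 members, highest for let-7b-5p, let-7c-5p, let-7e-5p, let-7f-5p and let-7i-5p and lowest for let-7d-5p, let-7g-5p and miR-98-5p.

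The miR-200 family maintains the epithelial state by repressing ZEB1 and ZEB2. miR-200c-3p stood at 1641, 2387, 2169 and 1941 CPM with shNeg and at 15663, 12226, 11825 and 7211 CPM with shRELB. The shRELB libraries were more spread, with replicate 4 the lowest, but lay far above all shNeg libraries. The log2 fold change was 2.53 (SE 0.21, FDR 1.87e-11), a fold of 5.77. miR-141-3p, from the hairpin next to it in an intron of MIR200CHG on chromosome 12, went from 26.4, 38.2, 60.5 and 50.5 to 170.3, 143, 131 and 97.2 CPM, a log2 fold change of 1.61 (SE 0.27, FDR 2.24e-05).

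The members encoded on chromosome 1 were at low levels. miR-200b-3p went from 0.733, 15.3, 13.3 and 11.9 to 40.6, 34.6, 28.4 and 28.1 CPM, a log2 fold change of 1.65 (SE 0.36, FDR 0.000716), or 1.28 without shNeg replicate 1, its lowest library. miR-429, which has the same seed, was at the floor with shNeg, reached at most 3.69 CPM with shRELB and was not called. In all, 3 of the 8 members tested rose and none fell, against 7.29% and 6.08% over all miRNAs tested. Their median was 1.90, or 1.21 with floor values at their limits. With GC content as an offset, miR-141-3p and miR-200b-3p were just under the fold change threshold, at 0.95 and 0.97.

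Of 10 tested miRNAs listed as targets of NF-κB, 3 were up-regulated, none was down-regulated and the median was 0.82. Over all miRNAs tested, 7.29% were up-regulated and 6.08% down-regulated. Without shNeg replicate 1, miR-9-3p, named after its values were seen, was called lower, at −2.28 (FDR 0.00107). miR-155-5p is processed from the lncRNA MIR155HG and acts in activated lymphoid and myeloid cells. It stood at 0, 5.35, 7.70 and 6.32 CPM with shNeg and at 72.2, 81.1, 65.6 and 69.4 CPM with shRELB. shNeg replicate 1 had no count, and the shRELB libraries lay close together. The log2 fold change was 3.84 (SE 0.38, FDR 9.14e-10), or 3.45 without that library.

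miR-146a-5p and miR-146b-5p damp NF-κB signalling by repressing TRAF6 and IRAK1. miR-146a-5p stood at 11077, 12808, 15896 and 15556 CPM with shNeg and at 34833, 38946, 60836 and 65808 CPM with shRELB. The groups did not overlap, and shRELB replicates 3 and 4 were the highest. The log2 fold change was 1.86 (SE 0.18, FDR 3.81e-10). miR-146b-5p, from another chromosome, went from 107, 96.2, 128 and 106 to 203, 273, 404 and 506 CPM, a log2 fold change of 1.66 (SE 0.22, FDR 2.73e-07), with the same order of the shRELB libraries. With GC content as an offset, it was at 0.94, under the threshold.

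miR-135b-5p, which represses APC in the WNT pathway, had 0, 0.764, 1.54 and 0.702 CPM with shNeg and 18.5, 27.6, 25.6 and 12.9 CPM with shRELB. It was at least 10.4-fold higher, since no shNeg library had more than 3 counts. miR-135a-3p, the 3p arm of a related hairpin, was at least 3.11-fold higher, and its call was lost without shNeg replicate 3 or 4, without shRELB replicate 3 or 4 and in the fit of the spheroid shNeg and shRELB groups alone. miR-135a-5p, which has the seed of miR-135b-5p, was not called, at 0, 3.82, 3.59 and 4.21 and 0.527, 0.998, 3.72 and 1.15 CPM.

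miR-184 is abundant in the lens and cornea. It went from 139, 65.7, 72.3 and 77.9 to 333, 391, 299 and 391 CPM, a log2 fold change of 1.999 (SE 0.21, FDR 2.47e-09). shNeg replicate 1 was the highest of its group, and without it the log2 fold change was 2.30. miR-34a-5p, a direct target of p53 that represses cell cycle genes, went from 526, 861, 1349 and 1279.7 to 3201, 2919.7, 3594 and 3041 CPM, a log2 fold change of 1.67 (SE 0.21, FDR 1.11e-07). Of the other p53-linked miRNAs, miR-194-5p (from 2 hairpins), miR-192-3p and miR-215-5p fell, with log2 fold changes of −1.41, −2.26 and −1.46, and the 9 members tested had a median of −0.39. In each of these 3, 1 shNeg library lay within the range of the shRELB libraries. The shares over all miRNAs tested were 7.29% called higher and 6.08% called lower. The FDR of miR-215-5p was 0.0099, and its call was lost in limma, with the replicate number as a block and in 6 of the 8 fits that left out 1 library, all but those without shNeg replicate 1 or shRELB replicate 3.

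Among the miR-30 family, 5 of 11 tested members rose and none fell, against 7.29% and 6.08% over all miRNAs tested. The median of the family was 1.10. All called members but miR-30a-5p came from the 3p arm. miR-30a-3p went from 9.53, 12.98, 12.3 and 10.5 to 57.5, 59.9, 68.4 and 72.3 CPM, a log2 fold change of 2.50 (SE 0.24, FDR 4.98e-10), and miR-30a-5p from the same hairpin had a log2 fold change of 1.504 (SE 0.20, FDR 5.70e-07). miR-30c-1-3p and miR-30e-3p, from neighbouring hairpins on chromosome 1, were at 1.25 and 1.182, the latter 0.94 and not called without shNeg replicate 1, nor without shRELB replicate 3 (0.95) or 4 (0.97). miR-30a-5p and miR-30e-3p were not called with the GC offset, at 0.81 and 0.67, and with library totals miR-30c-1-3p and miR-30e-3p were not.

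miRNAs within the HOX gene clusters, which repress HOX mRNAs, were next. Of 8 tested, 5 rose and none fell, against 7.29% and 6.08% over all miRNAs tested. The median was 1.23, or 1.12 with floor values at their limits. miR-196b-5p, in an exon of HOXA9, went from 329, 471, 577 and 474 to 1732, 1457, 1482 and 932 CPM, a log2 fold change of 1.60 (SE 0.22, FDR 5.63e-07). miR-10b-5p went from 319, 272, 362 and 375 to 492, 634, 933 and 952 CPM, a log2 fold change of 1.182 (SE 0.21, FDR 5.86e-05). miR-196a-5p, which can come from the HOXB or the HOXC cluster, went from 7911, 6991, 7741 and 6086 to 15026, 14534, 15938 and 14708 CPM, a log2 fold change of 1.07 (SE 0.15, FDR 1.19e-06). Each had separate groups. miR-10a-3p (1.29) and miR-10b-3p (2.02) were also called. The calls of miR-10b-5p and miR-196a-5p lay near the threshold and were lost with library totals, with a mean of 10 CPM or more required and without shRELB replicate 3 (0.91 and 0.89) or 4 (0.92 and 0.95). That of miR-196a-5p was also lost with median-ratio size factors, in DESeq2, with GC content as an offset and without shNeg replicate 4 (0.996), while miR-10b-5p had no matched sequence and is not in the GC fit. miR-10a-3p was not called with the offset or without shRELB replicate 3 (0.93) or 4 (0.98).

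In smaller groups of growth-related miRNAs, calls are to be set beside the 7.29% called higher and 13.4% called either way over all miRNAs tested. In the group of miR-15, miR-16 and miR-107, which repress cyclins, 3 of 15 rose and the median was 0.89. Without shNeg replicate 1 there was 1 rise and 1 fall, near the share called either way over all. miR-16-5p, from 2 hairpins, went from 5685, 3949.8, 4224 and 4059 to 7862, 7905, 10417 and 11248 CPM, a log2 fold change of 1.06 (SE 0.19, FDR 4.79e-05). miR-503-5p was at 1.04, or 0.93 and not called without shNeg replicate 1. Neither was called with median-ratio size factors, library totals, DESeq2, the GC offset or a mean of 10 CPM or more required, nor without shRELB replicate 3 (0.87 and 0.84) or 4 (0.84 and 0.84). Among the miR-130, miR-301 and miR-454 family, miR-454-3p (1.80) and miR-130b-3p (1.49) rose of 8 tested, all with positive values and a median of 0.96, and miR-454-3p was under the threshold with the GC offset, at 0.98.

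miR-26b-5p, in an intron of CTDSP1 and known to repress EZH2, went from 1024, 2661, 3493 and 3159 to 7392, 7266, 10667 and 11082 CPM, a log2 fold change of 1.82 (SE 0.23, FDR 1.86e-07). shNeg replicate 1 was its lowest library, and without it the log2 fold change was 1.55. With the GC offset it was 1.00 and not called. miR-152-3p, in an intron of COPZ2, had 0, 15.3, 28.2 and 10.5 CPM with shNeg and 55.4, 56.2, 92.1 and 80.3 CPM with shRELB, a log2 fold change of 2.34 (SE 0.42, FDR 4.97e-05). Of its seed mates, miR-148a-3p was at 0.95 (SE 0.26, FDR 0.00608), just under a fold of 2, and miR-148b-3p overlapped between the groups.

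In the miR-17, miR-106b and miR-106a clusters, 2 of 19 members rose and 1 fell, at a median of 0.05. That share of calls is near the 13.4% called either way over all miRNAs tested. miR-17-5p (1.35) and miR-363-3p (1.52) rose, but were 0.86 and 0.92 and not called with the GC offset, and miR-17-5p was 0.99 and not called without shRELB replicate 3. miR-106b-3p, the 3p arm of a hairpin in an intron of MCM7, fell from 8549.9, 8578, 8007 and 7779 to 3074, 2910.4, 2525 and 3496 CPM, a log2 fold change of −1.46 (SE 0.20, FDR 8.38e-07). The other arm of that hairpin, miR-106b-5p, was not called, at 0.44. In the clusters of miR-23, miR-24 and miR-27, miR-23a-3p and miR-27a-5p rose of 9 tested, at 1.13 and 1.58. The share that rose over all miRNAs tested was 7.29%. miR-23a-3p was at 0.84 without shNeg replicate 1 and 0.75 without shRELB replicate 3, and was called in neither, nor with the GC offset or any scaling other than TMM. The call of miR-27a-5p was lost with library totals and without shNeg replicate 2 (1.52), shRELB replicate 3 (1.49) or shRELB replicate 4 (1.42).

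Lists with no call were the miR-183 cluster (5 tested, median 0.68), the miR-181 family (8 tested, median 0.58, with 1 call without shNeg replicate 1), miR-92b with miR-32 (4 tested) and the hypoxia miRNA miR-210 (2 arms tested). The most abundant of these, miR-181a-5p, stood at 24363 ± 4219 CPM (SD, n = 4) with shNeg and 27034 ± 6216 with shRELB. miR-210-3p stood at 257 ± 53.02 and 228 ± 18.7 CPM (SD, n = 4). Of the 4 miR-221 and miR-222 arms tested, miR-221-5p alone was called, at 1.41, where 13.4% were called either way over all miRNAs tested. Among miR-99, miR-100 and miR-125, miR-100-5p alone was called of 9 tested, near that 13.4%. It was called lower, with 0, 0, 2.57 and 24.6 CPM in shNeg, so that replicate 4 alone carried the level. Without it the log2 fold change was −0.81, and the call was also lost without shRELB replicate 1 (−3.21), 3 (−3.62) or 4 (−3.18). Among miRNAs of imprinted loci, miR-675-3p alone was called of 8 tested, also near 13.4%. It had at most 3 counts in each shRELB library and was at least 2.10-fold lower. Leaving out any of 5 libraries (shNeg replicate 3 or 4, shRELB replicate 1, 2 or 4) ended its call. Without shNeg replicate 1 that list had 1 rise and 3 falls.

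Decreases grouped at 2 GABA receptor genes on chromosome X. miR-224-5p lies in an exon of GABRE (chrX:151958578-151958658, minus strand) and is raised in several carcinomas. It went from 1811, 1377, 2067 and 2116 to 190.3, 253, 292 and 469 CPM, a log2 fold change of −2.61 (SE 0.21, FDR 1.26e-11). The lowest shNeg library was nearly 3 times the highest shRELB library. miR-452-5p, from the neighbouring hairpin of GABRE, went from 39.6, 8.40, 6.16 and 8.42 to 4.74, 2.99, 2.33 and 5.45 CPM, a log2 fold change of −1.97 (SE 0.48, FDR 0.00222). Its shNeg mean rested on replicate 1, and without that library the log2 fold change was −0.94 (FDR 0.0928) and it was not called, nor was it without shRELB replicate 2, at −1.85.

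miR-767-5p and miR-105-5p lie in an intron of GABRA3, a locus active in germ cells and some tumors. miR-767-5p, which pairs with TET1 and TET3 mRNAs, went from 649, 545, 578 and 569 to 122, 117, 111 and 141 CPM, a log2 fold change of −2.25 (SE 0.17, FDR 1.11e-12). miR-105-5p, from 2 hairpins of that intron, went from 170.2, 115, 184 and 152 to 41.1, 31.6, 44.2 and 36.7 CPM, a log2 fold change of −2.02 (SE 0.20, FDR 7.78e-10). For both, every shRELB library was under every shNeg library, and leaving out any library left them called. Their 3p arms had negative values at a few CPM and were not called, and miR-105-3p was called without shNeg replicate 1.

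miR-205-5p, a miRNA of squamous and basal epithelium that, like miR-200, represses ZEB1, went from 1543, 1433, 2296 and 2622 to 453, 488, 479 and 569 CPM, a log2 fold change of −1.99 (SE 0.18, FDR 2.95e-10). Its direction was opposite to that of miR-200c-3p, miR-141-3p and miR-200b-3p in the same libraries. miR-29a-3p, which represses collagens and DNA methyltransferases, went from 15634, 8207, 11093 and 11524 to 4287, 4045, 4699 and 5055 CPM, a log2 fold change of −1.36 (SE 0.19, FDR 8.38e-07). It was the only call among 6 tested members of its family, near the 13.4% called either way over all miRNAs tested. miR-509-3p, from 3 hairpins on chromosome X, went from 204, 159.6, 191 and 139.7 to 53.8, 56.2, 40.0 and 39.9 CPM, a log2 fold change of −1.87 (SE 0.22, FDR 2.53e-08).

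miR-671-5p, in an exon of CHPF2, went from 2570.0, 3524, 3737 and 3556 to 1397, 1226, 1174 and 967 CPM, a log2 fold change of −1.49 (SE 0.17, FDR 1.76e-08). Its other arm, miR-671-3p, fell with it, at −1.96, or −1.29 without shNeg replicate 1, which held 766 CPM against 215 to 235 in the other shNeg libraries. miR-642a-5p, in an intron of GIPR, went from 416, 634, 642 and 734 to 113, 164, 169.7 and 173 CPM, a log2 fold change of −1.97 (SE 0.20, FDR 1.66e-09). The other arm of that hairpin, miR-642a-3p, did not change past the test, at 0.07. miR-486-5p, an erythroid miRNA also made in muscle, went from 707, 412, 467 and 448 to 206, 194, 136 and 214 CPM, a log2 fold change of −1.44 (SE 0.23, FDR 7.22e-06).

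**Figure D3:**
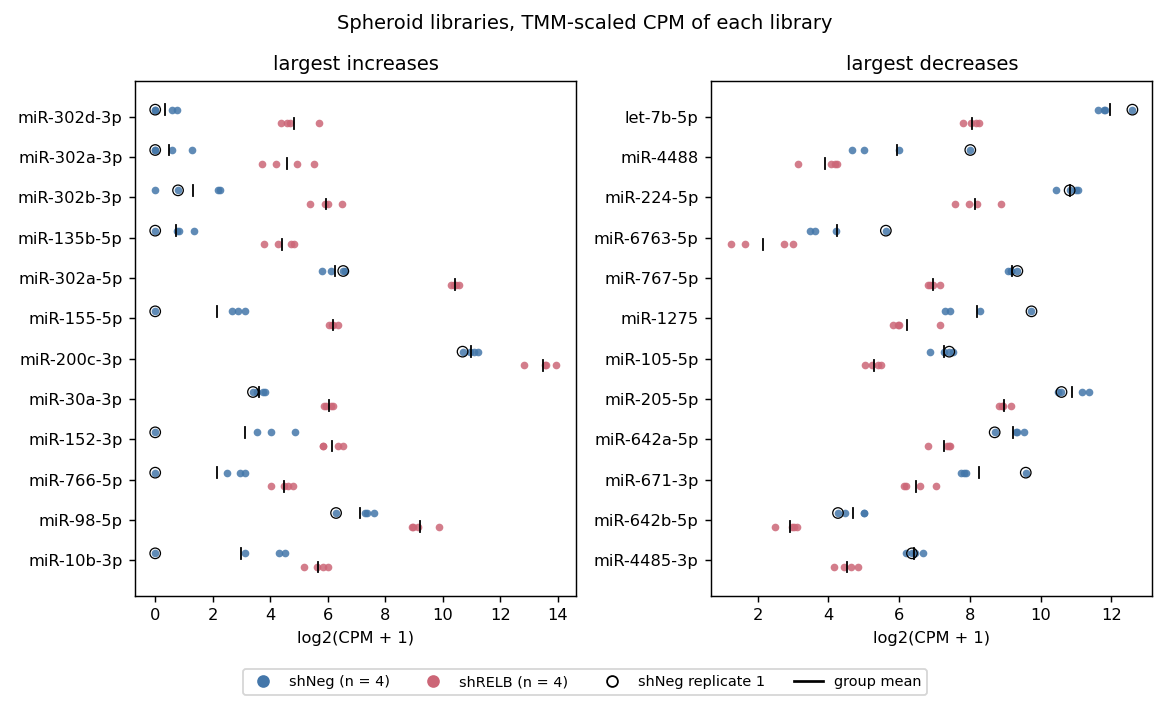
TMM-scaled level of each library, as log2(CPM + 1), for the 12 largest increases (left) and the 12 largest decreases (right) among called miRNAs that averaged 10 CPM or more and showed no overlap between groups. Blue points are shNeg, red points shRELB (n = 4 each), bars are group means and circles mark shNeg replicate 1, which is at 0 for 7 of the 12 increases.

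Some of the largest decreases rested on shNeg replicate 1. miR-4488 went from 257, 63.4, 31.3 and 24.6 to 15.8, 17.3, 7.91 and 17.8 CPM, a log2 fold change of −2.66, but −1.41 (FDR 0.00335) without that library. miR-4516 went from 1879, 392, 206 and 164 to 112, 114, 88.8 and 198 CPM, a log2 fold change of −2.36, but −0.98 without it, which ended the call. miR-1275 went from 857, 311, 155 and 173 to 61.7, 55.9, 62.8 and 141 CPM, a log2 fold change of −2.21, or −1.39 without it and still called. In all of these, replicate 1 was the highest shNeg library by more than a fold of 2.

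The same held for other called miRNAs. miR-760 (−1.76), miR-328-3p (−1.29), miR-1306-5p (−1.82) and miR-6763-5p (−2.35) were at −0.85, −0.55, −0.61 and −1.59 without replicate 1 and were no longer called. Among the increases, miR-23a-3p and miR-128-3p were the most abundant whose call was lost, at 0.84 and 0.996. Without the library, 115 miRNAs were called, 63 up-regulated and 52 down-regulated. These included 92 of the 121, while 29 calls were lost (11 up-regulated and 18 down-regulated) and 23 were gained. Across the fits that each left out 1 of the 8 libraries, 67 miRNAs were called every time. With the other settings added, 29 were both tested and called every time, 12 up-regulated and 17 down-regulated.

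Other libraries and the fit of 2 groups ended further calls. miR-128-3p was not called without shNeg replicate 2 (0.97) or shRELB replicate 3 (0.80) or 4 (0.69). miR-1306-5p and miR-328-3p were not called without shRELB replicate 1, 2 or 3, at −1.77, −1.77 and −1.70 and at −1.12, −1.18 and −1.28. In the fit of the spheroid shNeg and shRELB groups alone, the calls of miR-152-3p, miR-200b-3p, miR-10a-3p, miR-10b-3p, miR-30c-1-3p, miR-30e-3p, miR-130b-3p, miR-363-3p, miR-23a-3p, miR-27a-5p, miR-503-5p, miR-221-5p, miR-192-3p, miR-194-5p, miR-215-5p, miR-452-5p and miR-129-5p were lost, among others.

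The called miRNAs differed in base composition. A mature sequence was matched for 795 of the miRNAs tested and for 109 of the calls. The median GC content was 43.5% for the up-regulated (n = 60), 57.1% for the down-regulated (n = 49) and 54.5% for all. Among the 304 matched miRNAs that averaged 10 CPM or more, the median log2 fold change was 0.65 below 35% GC, 0.85 from 35% to 45%, 0.47 from 45% to 55%, −0.10 from 55% to 65% and −0.47 at 65% and above. In the lowest class 6 of 17 were up-regulated and none was down-regulated, and in the highest class 0 of 41 were up-regulated and 11 were down-regulated. Spearman's rho between GC content and log2 fold change was −0.46 over these 304 miRNAs, which share libraries and are not independent. Without shNeg replicate 1 it was −0.35.

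**Figure D4:**
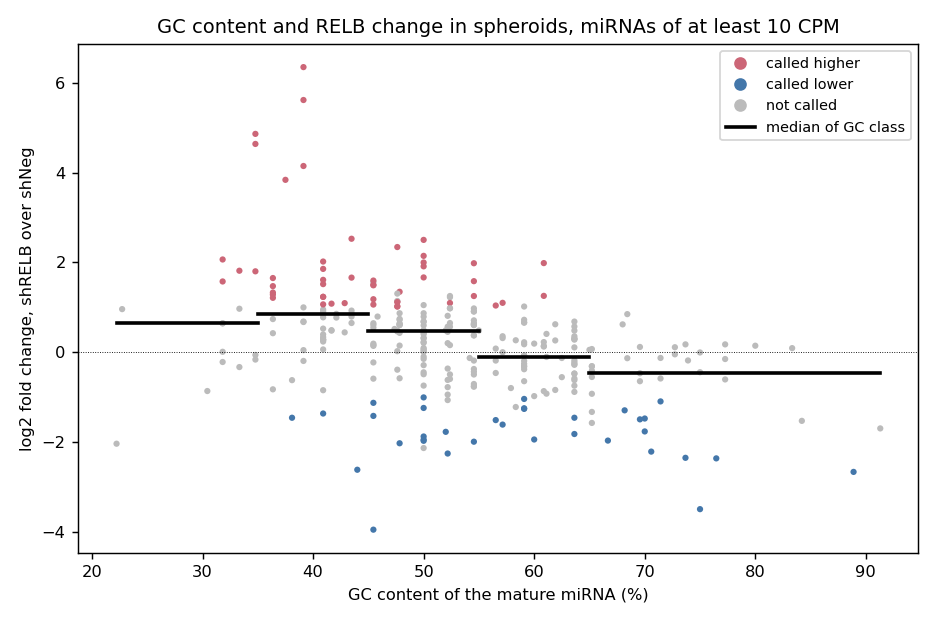
Log2 fold change (shRELB over shNeg, spheroids) against the GC content of the mature miRNA in percent, for the 304 matched miRNAs that averaged 10 CPM or more. Points are miRNAs coloured by call and lines are medians within GC classes, which go from 0.65 and 0.85 in the 2 lowest classes to −0.47 in the highest.

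The plot of change against GC content shows class medians that fall from the 35% to 45% class to the last. The share of counts from miRNAs of at least 65% GC was 2.58% to 3.25% in the spheroid shNeg libraries and 1.24% to 1.58% in the spheroid shRELB libraries. In adherent libraries it was 0.642% to 0.717% with shNeg and 0.951% to 1.12% with shRELB, the opposite order. Over the same 304 miRNAs, rho with the RELB change in adherent culture was 0.33. With shRELA in spheroids, against the same shNeg libraries, the share was 1.27% to 1.55% and rho was −0.49. With GC content as an offset, 95 miRNAs were called, 76 of them among the 121. Of the rest, 33 lost their call, 29 of them up-regulated, and 12 had no matched sequence.

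Arms and clusters gave a further description. Of 198 hairpins with both arms tested, 6 had both called. The arms went the same way for MIR302A, MIR302C, MIR30A, MIR503 and MIR671. For MIR455, named after its values were seen, they went opposite ways, with miR-455-5p at −1.12 (SE 0.31, FDR 0.00655) and miR-455-3p at 1.10 (SE 0.29, FDR 0.00471), and the latter was 0.83 and not called without shNeg replicate 1. miR-455-3p was also not called without shRELB replicate 1 (0.85) or 3 (0.79), and miR-455-5p without shNeg replicate 3 (−0.94) or 4 (−0.82) or shRELB replicate 1 (−0.96), 2 (−1.12) or 3 (−1.26). A further 52 hairpins had 1 arm called, and in 37 of these the other arm had the same sign. The share of same signs over all 198 hairpins was not computed. Counts of miR-199a-3p and miR-199b-3p were identical in every library, as were those of miR-517a-3p and miR-517b-3p, so each pair cannot be told apart. Both pairs were called and each is counted as 2 of the 121, although it is 1 measurement.

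Marker miRNAs were compared with the label of an epithelial tumor line. The 7 epithelial markers summed to 3238 to 4631 CPM with shNeg and 7911 to 16340.3 CPM with shRELB, of which miR-200c-3p and miR-205-5p took most. Of these 7, 3 were called higher and 1 lower, against 7.29% and 6.08% over all miRNAs tested. Leukocyte markers (3 tested) summed to 10.3 to 27.4 CPM over both groups. Striated muscle (2 tested) and neural (1 tested) markers summed to at most 7.44 and 4.91 CPM. Smooth muscle and fibroblast markers (2 tested) summed to 53.3 to 66.7 and 72.8 to 112 CPM, and endothelial markers (2 tested) to 762 to 960.3 and 570.0 to 1262 CPM. None of the markers of these other cell types was called.

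The other 2 lists held abundant miRNAs. miR-122-5p, the defining miRNA of hepatocytes, stood at 23898, 16382, 20957 and 19648 CPM with shNeg and at 13733, 16048, 18354 and 21098 CPM with shRELB, overlapped between groups and was not called, at −0.22. It was as abundant in adherent cells, at 19810.4 ± 973 and 20487 ± 1614 CPM (SD, n = 4 each). The 3 erythroid markers summed to 415 to 707 CPM with shNeg and 136 to 215 CPM with shRELB, of which nearly all was miR-486-5p. miR-451a, the defining erythroid miRNA, and miR-144-5p were at or under the floor in both groups, and miR-451a had no count in any shRELB library.

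The design also asks whether RELB knockdown acts alike in the 2 cultures. In adherent culture, 64 miRNAs were called (7.07%). Of the 121 spheroid calls, 24 were called in the same direction in adherent culture and 0 in the opposite direction, and 80 had the same sign. The share with the same sign over all miRNAs tested was not computed. The difference of the RELB change between spheroid and adherent culture, tested in the same fit, was called for 77 miRNAs (8.51%), 49 of them among the 121. TMM put 54.5% of these differences on the higher side, and library totals 19.1%.

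**Figure D5:**
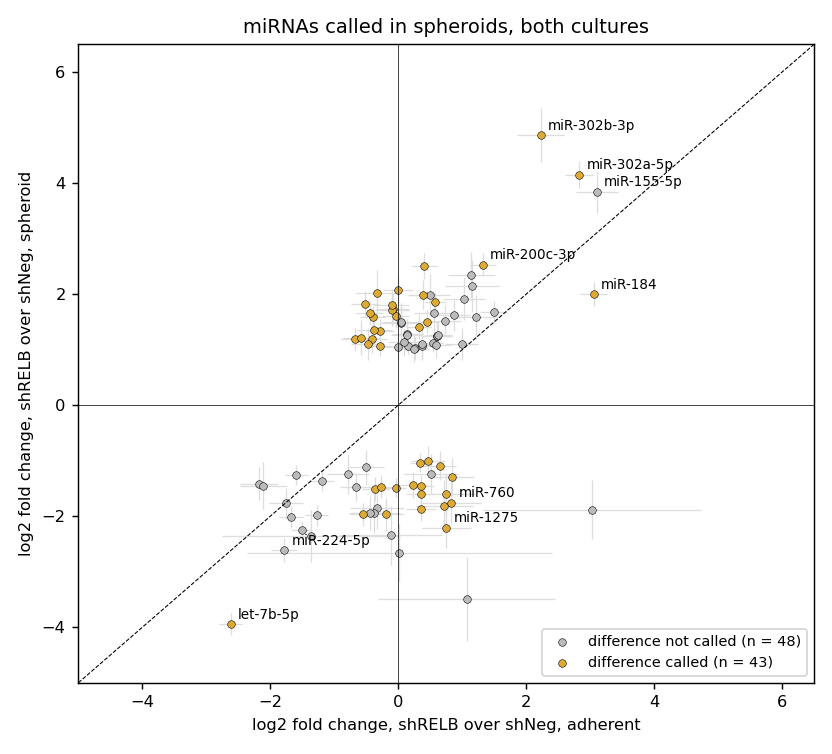
Log2 fold change with shRELB in spheroids against that in adherent culture, for the 91 miRNAs called in spheroids that averaged 10 CPM or more and lay above the floor. Bars are standard errors, the dashed line marks equal change, and the 43 orange points are those whose difference between cultures was called. Most orange points on the upper side are near 0 on the adherent axis.

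Of these 49, 48 had a difference of the same sign as the change in spheroids. That count was largely set in advance, since the 49 were chosen by a called spheroid change, which is part of the difference. The exception was miR-184. In adherent culture it went from 91.6 ± 13.5 to 761 ± 77.1 CPM (SD, n = 4), for a log2 fold change of 3.05 (SE 0.21, FDR 5.82e-13). The difference of spheroid minus adherent was −1.05 (SE 0.28, FDR 0.00791).

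Among the increases with a called difference, some were present in both cultures and larger in spheroids. miR-302b-3p rose by 2.22 in adherent culture, with a difference of 2.64 (SE 0.62, FDR 0.00283), and miR-302a-5p by 2.83, with a difference of 1.32 (SE 0.30, FDR 0.00219). miR-200c-3p rose by 1.32, with a difference of 1.21 (SE 0.28, FDR 0.00241). miR-302d-3p and miR-135b-5p were also called higher in adherent culture, at 2.33 and 1.73. Their fitted differences of 4.02 and 2.90 rest on spheroid shNeg values at the floor and are no bounds. That of miR-302b-3p rests on a spheroid shNeg mean of 2.04 CPM, near the floor.

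Others changed by less than 2-fold in adherent culture, some of them downward. miR-98-5p was at −0.01 there, with a difference of 2.08 (SE 0.34, FDR 5.25e-05). miR-26b-5p was at −0.52, with a difference of 2.34 (SE 0.32, FDR 1.27e-05), and let-7f-5p at −0.40, with a difference of 1.98 (SE 0.28, FDR 1.27e-05). miR-146b-5p and miR-30a-3p had differences of 2.11 and 2.11. miR-10b-3p had 2.36 (SE 0.54, FDR 0.00219). With GC content as an offset, 41 differences were called, 7 higher and 34 lower.

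Among decreases, let-7b-5p fell in adherent culture from 1266 ± 83.5 to 206 ± 20.6 CPM (SD, n = 4), for a log2 fold change of −2.62 (SE 0.19, FDR 5.82e-13). The fall was larger in spheroids, with a difference of −1.32 (SE 0.25, FDR 0.000315). miR-1275, miR-760, miR-1306-5p and miR-129-5p had the most negative differences among called miRNAs, at −2.96, −2.59, −2.54 and −2.35. The first 3 were highest in spheroid shNeg replicate 1. miR-509-3p was at 0.35 in adherent culture, with a difference of −2.22 (SE 0.32, FDR 1.27e-05), and its spheroid shNeg libraries were close together. miR-155-5p, miR-34a-5p, miR-29a-3p, miR-224-5p, miR-105-5p and miR-767-5p were called in both cultures, and their differences were not called, at 0.74, 0.18, −0.16, −0.83, −0.34 and −0.74, with standard errors of 0.22 to 0.49.

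RELA knockdown in spheroids is the nearest comparison, and it shares the 4 shNeg libraries. It gave 137 calls (15.1%). Of the 121 RELB calls, 60 were also called with shRELA in the same direction and 0 in the opposite direction, against those same shNeg libraries. The direct test of shRELB against shRELA, which leaves the shNeg libraries out of the contrast, gave 60 calls (6.63%), of which 27 were among the 121. miR-135b-5p stood at 1.21 ± 0.978 CPM (SD, n = 4) with shRELA and 21.1 ± 6.74 with shRELB, a log2 difference of 4.17 (SE 0.46, FDR 1.73e-08). miR-184 stood at 63.5 ± 4.51 and 354 ± 45.6 CPM, a log2 difference of 2.48 (SE 0.21, FDR 3.69e-11). The miR-302 arms were higher with shRELB too, with miR-302a-5p at 2.93 (SE 0.22, FDR 3.84e-12), miR-302b-3p at 2.70 and miR-302a-3p at 2.57.

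miR-105-5p and miR-767-5p were lower with shRELB than with shRELA, at −2.46 (SE 0.20, FDR 1.26e-11) and −2.22 (SE 0.16, FDR 2.29e-12). Against shNeg their RELA log2 fold changes were 0.44 and −0.03, side by side with −2.02 and −2.25 for RELB. miR-215-5p and miR-509-3p were lower as well, at −2.39 and −1.95. miR-224-5p did not differ past the test, at 0.41 (SE 0.20, FDR 0.167), with −3.03 for RELA and −2.61 for RELB against shNeg. miR-30a-3p was called lower with shRELB than with shRELA, at −1.06, although both exceeded shNeg, at 3.56 for RELA and 2.50 for RELB. let-7b-5p was lower with shRELB, at −1.12 (SE 0.18, FDR 1.77e-05), and miR-155-5p did not differ past the test, at 0.52 (SE 0.30, FDR 0.247).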

How the data were processed

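Small RNA libraries of OV90 cells were made with a kit that adds unique molecular indices, and whether these were collapsed is not given in the sources used here. The submitters' processing notes name cutadapt, edgeR and GRCh38. The table the authors deposited holds estimated counts of mature miRNAs without scaling to library size, although the methods speak of CPM. The values were taken as counts since totals differ between libraries. Of 2656 miRNAs, 843 had no count in any library. Non-whole values (3.04% of those above 0, at a tolerance of 0.001) were rounded. No column was left unused.

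The 905 miRNAs that reached 1 CPM in 4 or more of the 24 libraries were tested. Counts were scaled by TMM and fitted over all 24 libraries with the 6 groups as the only term (edgeR 4.0.16, R 4.3.3, common dispersion 0.0888), in the quasi-likelihood test with Benjamini-Hochberg adjustment. Standard errors are the log2 fold change over the root of F. CPM are given per library or as mean ± SD. Depth is given as total counts, with intervals for counting error only. Alternatives were DESeq2 1.42.0, limma 3.58.1 on log2(CPM + 1), other scalings, filters, thresholds, a replicate block, fewer groups and each library left out. A GC offset (lowess, span 0.7, on matched miRNAs) and fewer groups without shNeg replicate 1 were chosen after seeing the data.

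The comparisons, members and lists were chosen with earlier results of these data known, so no list is independent support. Named miRNAs were the 12 highest and 12 lowest called log2 fold changes with a mean of at least 10 CPM and no overlap, the 10 most abundant calls, up to 4 called members of each list (or the most abundant member where none was called), other arms and seed mates of these, the 4 highest and 4 lowest in the culture and shRELA contrasts, and the 4 most abundant that depended on shNeg replicate 1. Others were named after their values were seen and are marked so, apart from list members given with their list. Hairpin positions are from RefSeq and host genes from GENCODE on GRCh38. The replicate libraries of a group differed by more than sampling noise, at a chi-square per degree of freedom of at least 19.5.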

Additional observations from a re-analysis of the deposited data

Results flagged for a closer look

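In a group of 4 libraries, chance alone sets 1 library apart by Dixon's test in about 1 of 20 groups. Among the 104 named miRNAs, 31 of 208 groups had such a library, 13 of them with shNeg replicate 1, and 12 of the 31 had at most 20 counts in any library of the group. shNeg replicate 1 itself stood apart by its number of miRNAs with a count, 432.

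shNeg replicate 1 was the high library for miR-184 (139 CPM), miR-16-5p (5690 CPM), miR-183-5p (2240 CPM), miR-328-3p (1240 CPM), miR-760 (950 CPM), miR-1306-5p (102 CPM), miR-671-3p (766 CPM), miR-452-5p (39.6 CPM), miR-4516 (1880 CPM), miR-4488 (257 CPM) and let-7b-5p (6200 CPM). It was the low library for let-7d-5p (1160 CPM) and miR-135a-5p (0 CPM).

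shNeg replicate 2 stood apart for miR-135a-3p (1.53 CPM) and shNeg replicate 3 for miR-200c-5p (1.03 CPM). shNeg replicate 4 did so for miR-429 and miR-16-1-3p (0.702 CPM each), miR-206 (2.11 CPM), miR-146a-3p (3.51 CPM), miR-10a-3p (42.1 CPM), miR-124-3p (4.21 CPM) and miR-100-5p (24.6 CPM). Among shRELB libraries, replicate 1 stood apart for miR-200c-5p (3.69 CPM), miR-642a-3p (17.9 CPM) and miR-642a-5p (113 CPM), and replicate 2 for let-7f-1-3p (0.333 CPM) and miR-146a-3p (0.998 CPM). shRELB replicate 3 stood apart for miR-23a-3p (1620 CPM) and miR-675-3p (0.465 CPM), and replicate 4 for miR-328-3p (423 CPM) and miR-1275 (141 CPM).

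The RELB change differed between spheroid and adherent culture for 39 of the named miRNAs, by the contrast of both changes in edgeR's quasi-likelihood test. As log2 differences, spheroid minus adherent, the positive ones were 4.02 for miR-302d-3p, 2.90 for miR-135b-5p, 2.64 for miR-302b-3p, 2.36 for miR-10b-3p, 2.34 for miR-26b-5p, 2.11 for miR-30a-3p, 2.11 for miR-146b-5p, 2.08 for miR-98-5p, 1.98 for let-7f-5p, 1.90 for miR-454-3p, 1.87 for miR-10b-5p, 1.79 for miR-15b-3p, 1.72 for miR-17-5p, 1.72 for miR-126-3p, 1.64 for miR-196b-5p, 1.61 for let-7g-5p, 1.60 for miR-30e-3p, 1.46 for miR-148a-3p, 1.35 for miR-16-5p, 1.32 for miR-302a-5p, 1.28 for miR-146a-5p, 1.21 for miR-200c-3p, 1.14 for let-7a-5p, 1.09 for miR-221-5p and 1.06 for miR-30a-5p. The negative ones were −2.96 for miR-1275, −2.59 for miR-760, −2.54 for miR-1306-5p, −2.35 for miR-129-5p, −2.22 for miR-509-3p, −2.13 for miR-328-3p, −1.81 for miR-106b-3p, −1.76 for miR-671-3p, −1.66 for miR-486-5p, −1.50 for miR-92b-3p, −1.45 for miR-671-5p, −1.41 for miR-642a-5p, −1.32 for let-7b-5p and −1.05 for miR-184. miR-1275, miR-760, miR-1306-5p, miR-328-3p and miR-671-3p were highest in spheroid shNeg replicate 1.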

How the results depend on the processing

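The count of 121 RELB calls in spheroids stayed between 93 and 180 in all settings but 1. When the spheroid shNeg and shRELB groups alone were fitted, 50 were called, and 98 with shNeg replicate 1 also left out. The count was 139 without a filter, 93 with a mean of 10 CPM or more required, 118 with median-ratio size factors, 123 with library totals, 138 in DESeq2, 156 in the likelihood ratio test, 131 in limma, 95 with GC content as an offset, and 94 to 136 without each replicate in turn. The culture difference, with 77 calls, had 41 with the GC offset, 129 at an FDR below 0.05 and 54 to 98 without each replicate. shRELB against shRELA, with 60 calls, had 97 in the likelihood ratio test, 107 at an FDR below 0.05 and 51 to 62 without each replicate. The cause of these moves was not tested.

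Replicate numbers are shared between groups, but libraries with the same number did not deviate together: the correlations of shNeg and shRELB deviations were −0.022, 0.169, 0.345 and −0.380 for numbers 1 to 4. With the replicate block, 108, 72 and 58 miRNAs were called in the 3 comparisons. Of the 121, 108 were called the same way, and among miRNAs given above or below miR-215-5p, miR-1306-5p, miR-100-5p, miR-378d and miR-664b-5p were lost.

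Direction turned only for named miRNAs that were not called. With GC content as an offset these were miR-148b-3p (−0.69), let-7i-5p (−0.61), miR-126-3p (−0.51), miR-181a-5p (−0.45), let-7d-5p (−0.37), miR-642a-3p (−0.33), miR-106b-5p (−0.29), let-7a-5p (−0.27), miR-143-3p (−0.14), miR-183-5p (−0.13), let-7c-5p (−0.087) and let-7e-5p (−0.040). With library totals they were miR-148b-3p (−0.22), miR-642a-3p (−0.21), miR-126-3p (−0.13), miR-181a-5p (−0.10) and miR-150-5p (−0.035). With a mean of 10 CPM or more required, miR-642a-3p and miR-148b-3p were at −0.12, miR-126-3p at −0.070 and miR-181a-5p at −0.047. In median-ratio size factors and DESeq2, miR-148b-3p was at −0.0906 and −0.0905, miR-642a-3p at −0.0817 and −0.0729 and miR-126-3p at −7.48e-04 and −7.09e-04, and let-7f-1-3p was at −0.20 in DESeq2. When the groups compared were fitted without shNeg replicate 1, miR-150-5p was at −0.20, miR-124-3p at −0.17, miR-148b-3p at −0.11, miR-642a-3p at −0.091 and let-7d-5p at −9.92e-05. Without each replicate in turn the ranges were 0 to 2.28 for let-7f-1-3p, −0.29 to 1.89 for miR-4458, −0.35 to 0.64 for miR-150-5p, −0.73 to 2.56 for miR-124-3p, −0.18 to 0.32 for miR-126-3p, −0.13 to 0.22 for miR-642a-3p and −0.11 to 0.15 for miR-148b-3p.

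Values near the floor of about 1 to 2 CPM rest on few counts, and smaller changes were not detectable there.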

Other observations

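Further miRNAs, named after their values were seen, are given as values. miR-378a-5p went from 359, 476, 637 and 655 CPM with shNeg to 228, 212, 238 and 213 CPM with shRELB, a log2 fold change of −1.26 (SE 0.18, FDR 2.04e-06) in edgeR's quasi-likelihood test. In adherent culture its log2 fold change with shRELB was −1.59 (SE 0.18, FDR 4.56e-08). Its relatives miR-378c and miR-378d, whose reads overlap in sequence and may be split between them, had log2 fold changes of −1.77 (SE 0.28, FDR 7.17e-06) and −1.45 (SE 0.42, FDR 0.00995). The call of miR-378d held in 2 of the 8 fits that left out 1 library (without shNeg replicate 4 or shRELB replicate 1), with −1.27 to −1.49 in the others, and was lost without a filter, with the replicate block and when only the 2 groups were fitted.

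miR-664a-5p went from 135, 48.9, 76.4 and 59.7 to 169, 145, 165 and 198 CPM, a log2 fold change of 1.08 (SE 0.24, FDR 0.000694). It was not called with median-ratio size factors, library totals, DESeq2, the GC offset, a mean of 10 CPM or more required or the 2 groups alone, nor without shNeg replicate 2 (0.91) or 4 (0.97) or shRELB replicate 3 (0.98) or 4 (0.90). miR-664b-5p went from 211, 64.1, 56.9 and 41.4 to 50.1, 37.9, 25.6 and 44.5 CPM, a log2 fold change of −1.24 (SE 0.35, FDR 0.00851), and was not called without shNeg replicate 1 (−0.45) or shRELB replicate 1, 2 or 3 (−1.37, −1.22 and −1.18), with the replicate block, in limma or with the 2 groups alone. miR-551b-5p had 0, 9.16, 25.7 and 16.8 CPM with shNeg and 51.7, 52.5, 46.0 and 61.9 CPM with shRELB, a log2 fold change of 1.98 (SE 0.37, FDR 0.000106). It was at 1.58 and still called without shNeg replicate 1, and was not called with the 2 groups alone.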
